A study of Mus musculus with 6 samples.

Results

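The interferon-inducible GTPases described here are 10 mouse genes of 2 protein families, and they were taken by name out of 24062 genes that were counted by bulk RNA-seq. The guanylate-binding proteins (GBPs) among them are *Gbp2*, *Gbp3*, *Gbp4*, *Gbp5* and *Gbp7*. The immunity-related GTPases (IRGs) among them are *Igtp* (also called Irgm3), *Irgm1*, *Irgm2*, *Iigp1* (Irga6) and *Tgtp1* (Irgb6). All 10 had enough reads to be tested, as did 15652 genes in all.

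The comparison was between 3 libraries of *Nf1fl/fl;DhhCre* mice and 3 libraries labelled Rx1flfl;Rx3fl/fl;DhhCre, called double knockout here, all of strain background C57BL/6-I129. By the study's methods the double-knockout mice were floxed for *Nf1* as well as for *Runx1* and *Runx3*, whereas their labels leave the *Nf1* alleles out. *DhhCre* deletes floxed genes in Schwann cells (SCs) and their precursors, so that cells of other lineages, such as immune cells, keep intact copies in both genotypes. *Nf1* encodes neurofibromin, whose loss in SCs gives rise to neurofibromas, and *Runx1* and *Runx3* encode transcription factors that share a DNA motif. The labels name the tissue dorsal root ganglion (DRG) in 1 genotype and neurofibroma tumor in the other, and ages of these mice were not given in the sources used here. The libraries held 12439296 to 16682194 counts, and 3 counts corresponded to 0.179 to 0.247 CPM (counts scaled to a common library total), which bounds counting error only.

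Several features of the libraries bear on the values below. The 3 *Nf1fl/fl;DhhCre* libraries had *Runx1* at 131, 141 and 172 CPM. Those labelled double knockout had it at 84.0, 78.9 and 185 CPM, so that it was not lower in replicate 3. *Runx3* was at 19.9, 15.1 and 29.9 CPM against 13.5, 10.3 and 12.1 CPM, lower in all 3 libraries with that label. Cells outside the SC lineage keep both genes, so that these bulk levels do not settle the genotype. The 11 DRG neuron markers were all higher in the double-knockout label, where their summed level was 4468 to 10223 CPM against 874 to 1876 CPM, although DRG is the tissue label of the other genotype. General SC markers were present in every library, with sums of 1370 to 1565 CPM and 1536 to 2051 CPM. Skeletal muscle transcripts were abundant in replicate 2 of each genotype, at 1462 and 10548 CPM. Of the 6 libraries, 1 labelled double knockout came from another sequencing run; it is replicate 2 or 3, since titles and deposited data disagree on the mouse number of 2 libraries of each genotype, though not on the genotype.

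Interferon-inducible GTPases are effectors of cell-autonomous immunity. Interferon gamma acts through its receptor and Janus kinases, and its target genes carry the GAS element, whereas interferon regulatory factors bind the interferon-stimulated response element (ISRE). The induced GBPs and IRGs assemble on the vacuoles and membranes of intracellular pathogens, and GBPs are also known for their part in caspase-dependent inflammasome responses. Macrophages express many of these genes, but fibroblasts, endothelial cells and other cell types also do so once they meet interferon.

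The IRGs fall into 2 classes by the residue at the seventh position of the P-loop, the loop that holds the phosphates of the nucleotide. Effector IRGs carry a lysine there, as most GTPases do, and regulatory IRGs carry a methionine and are known to keep the effectors inactive on host membranes. The coding sequences of the P-loop are shown because they define this split, from GENCODE M21 transcripts of GRCm38, with the seventh codon in capitals.
Igtp: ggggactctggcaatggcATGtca
Irgm1: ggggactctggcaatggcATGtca
Irgm2: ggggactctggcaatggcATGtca
Tgtp1: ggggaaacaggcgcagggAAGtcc
Gbp2: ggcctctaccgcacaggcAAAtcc
Gbp3: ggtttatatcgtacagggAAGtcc
Gbp4: ggatggtcccatacagggAAGtcc
Gbp5: ggtctttatcgcacaggcAAAtcc
Gbp7: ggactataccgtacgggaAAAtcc
The 3 regulatory IRGs were identical over all 24 bases of this stretch. *Tgtp1*, *Iigp1* and the 5 GBPs had a lysine codon. The encoded proteins of the GBPs were 589 to 638 residues long and those of the IRGs 407 to 423 residues. A cysteine stood at the fourth residue from the end in *Gbp2* and *Gbp5*, where GBPs are known to receive a lipid anchor, and in *Iigp1*.

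Elements named for interferon signalling were searched for in the promoters as a description, because the members were chosen as interferon-inducible genes. RefSeq promoters of GRCm38.p6, from 250 bases before to 50 bases after the start site, matched 8 of the 10 genes in 9 windows, and *Gbp4* and *Iigp1* were not among them. The ISRE core GAAANNGAA, read on both strands, was found for 8 of 8 genes, in 8 of their 9 windows, and in 8.56% of 32851 promoters. The window without it was the second of *Gbp3*. The GAS element TTCNNNGAA was found for 5 (*Gbp5*, *Gbp7*, *Tgtp1*, *Igtp* and *Irgm2*) and in 8.30% of promoters, and these same 5 genes held both, against 1.07% of promoters. The RUNX motif TGTGGT was found for 1 gene (*Gbp2*) and in 16.8% of promoters. The 2 GAS elements of *Gbp5* began 245 and 52 bases before its start site, outside the stretch shown for it below. Start sites here are those of RefSeq, and some differ from GENCODE M21. Of the 150 bases before each, 150 lay in GENCODE exons for *Irgm1*, 61 for *Gbp2*, 34 for *Gbp5* and 12 for *Tgtp1*. For *Gbp7*, *Igtp* and *Irgm2* it was 0, and for the windows of *Gbp3* it was 18 and 78. In the stretches of 30 bases that hold the ISRE core, written 5′ to 3′ on the strand of the gene, the capitals mark GAS and ISRE.
Igtp (chr11:58199506-58199535, plus strand): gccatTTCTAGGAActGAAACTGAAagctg
Irgm2 (chr11:58214897-58214926, plus strand): gccatTTCCAGGAActGAAACTGAAagctg
Tgtp1 (chr11:48992310-48992339, minus strand): gccatTTCCAGGAAtcGAAACTGAAaccta
Irgm1 (chr11:48871426-48871455, minus strand): ttcaaGAAATAGAAACCGAAactgattctc
Gbp2 (chr3:142620600-142620629, plus strand): ttagtTTCACTTTCactgtcttaagcataa
Gbp3 (chr3:142559995-142560024, plus strand): acagtTTCAGTTTCTATTTCccagatccct
Gbp5 (chr3:142496765-142496794, plus strand): gtagtTTCAATTTCagtttagagaaccctt
In *Igtp*, *Irgm2* and *Tgtp1* a GAS was followed by an ISRE core 2 bases further on. The GAS of these genes began 45, 75 and 88 bases before the start site. In *Irgm1* and *Gbp3* a pair of ISRE cores overlapped, and in the GBPs the core lay on the opposite strand. *Gbp7* held 2 GAS elements and 1 ISRE core within the 150 bases before its start site, and the whole stretch is shown for that arrangement.
Gbp7 (chr3:142530186-142530335, plus strand): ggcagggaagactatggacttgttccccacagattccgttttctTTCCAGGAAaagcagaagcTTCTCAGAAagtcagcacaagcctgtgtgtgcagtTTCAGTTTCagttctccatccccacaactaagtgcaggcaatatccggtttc
These matches describe letters in a window and are not binding sites. A part of these elements in the difference between the genotypes was not tested.

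The members lie in a few clusters of the mouse genome (GRCm38, GENCODE M21), and all are protein-coding genes. *Gbp5* (chr3:142493978-142522344), *Gbp7* (chr3:142530342-142550149), *Gbp3* (chr3:142560026-142573209) and *Gbp2* (chr3:142620602-142638008) follow each other on the plus strand of chromosome 3. *Gbp4* (chr5:105115767-105139586, minus strand) overlaps *Gbp8* and *Gbp9* on the same strand. On chromosome 11, *Irgm1* (chr11:48861968-48871683) and *Tgtp1* (chr11:48985327-48994172) are on the minus strand. *Igtp* (chr11:58199556-58207591) and *Irgm2* (chr11:58199618-58222782) are on the plus strand of chromosome 11 and overlap each other. *Iigp1* is at chr18:60376027-60392634. Reads from overlapping genes, and from near-identical copies, can be split or lost in counting. Of the stretches of 50 bases in the transcript of *Tgtp1*, 91.4% also occurred in another gene, almost all of them in its copy *Tgtp2*. This share was 12.8% for *Gbp7* and *Gbp4*, 12.3% for *Igtp*, 7.30% for *Irgm2* and below 5% for each of the others, so that the values of *Tgtp1* in particular are uncertain.

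Every member had a lower mean in the double-knockout label than in *Nf1fl/fl;DhhCre*, and 5 of them (*Gbp2*, *Gbp3*, *Gbp5*, *Irgm1* and *Iigp1*) passed both thresholds of a differentially expressed gene (DEG), an adjusted p-value below 0.05 and a change of more than 2-fold. Over all tested genes, 5.36% were DEGs in this direction. The groups did not overlap for 8 members, the exceptions being *Gbp4* and *Igtp*, and all 3 double-knockout libraries were below all 3 others for 20.5% of tested genes. The log2 fold changes of the members, fitted with limma-voom on genotype, ranged from -2.63 to -0.54, with a median of -1.09, and the median over all tested genes was 0.02. In bulk tissue, fewer cells of a type and less RNA per cell cannot be told apart.

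**Figure D1:**
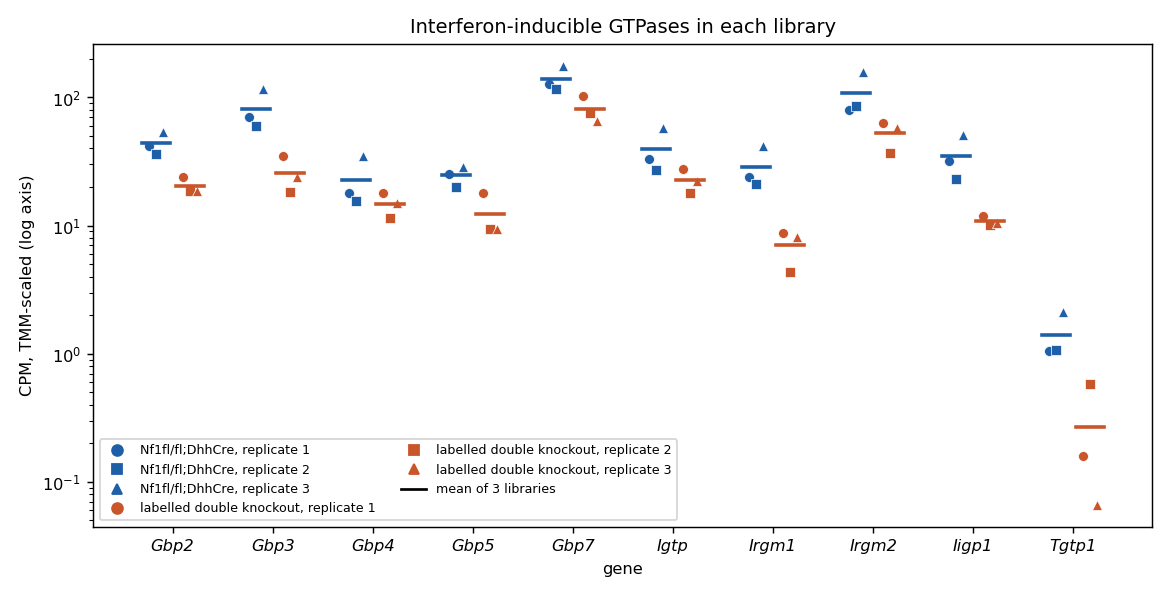
Level of each member in each library, as TMM-scaled CPM on a log axis, with circles, squares and triangles for replicates 1, 2 and 3 and a line at the mean of 3 libraries. *Nf1fl/fl;DhhCre* replicate 3 (blue triangle) is the highest point of every gene, and the 2 colors overlap only for *Gbp4* and *Igtp*.

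Among the GBPs, 3 of 5 were DEGs. *Gbp3* had the largest decrease of the GBPs. It was at 70.9, 59.7 and 116 CPM in *Nf1fl/fl;DhhCre* replicates 1 to 3 and at 34.7, 18.4 and 24.2 CPM in double-knockout replicates 1 to 3. Every library labelled double knockout was well below the lowest of the other genotype, and the mean was 31.4% of the *Nf1fl/fl;DhhCre* mean. Its log2 fold change of -1.66 (SE 0.32) passed, with a limma-voom p of 0.0176 after adjustment over all tested genes by the method of Benjamini and Hochberg.

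*Gbp2*, which coats pathogen vacuoles and is anchored to membranes by a lipid, was at 41.6, 36.4 and 53.8 CPM and at 23.7, 18.5 and 18.6 CPM. The means were 43.9 ± 8.90 and 20.3 ± 3.01 CPM (SD, n = 3 each), and the groups did not overlap. Its log2 fold change of -1.11 had the smallest standard error of the 10 members (SE 0.21, limma-voom adjusted p = 0.0161). *Gbp5*, a GBP with a lipid anchor that has been linked to the NLRP3 inflammasome, was at 25.2, 19.8 and 28.9 CPM and at 17.9, 9.37 and 9.37 CPM. Double-knockout replicate 1 came close to *Nf1fl/fl;DhhCre* replicate 2. The log2 fold change was -1.07 (SE 0.29, limma-voom adjusted p = 0.0423), just inside both thresholds.

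*Gbp7*, which has been linked to the oxidative burst of phagocytes, had the highest CPM of the 10. It was at 127, 116 and 176 CPM and at 102, 75.7 and 65.8 CPM. The groups did not overlap, but the change was under 2-fold, with a log2 fold change of -0.79 (SE 0.22, limma-voom adjusted p = 0.0459). *Gbp4* was at 17.8, 15.5 and 34.8 CPM and at 17.9, 11.5 and 14.9 CPM. Only *Nf1fl/fl;DhhCre* replicate 3 stood clear of the double-knockout values. The log2 fold change of *Gbp4* was -0.54, with a 95% interval from -1.36 to 0.28 and an adjusted p = 0.316 from limma-voom, so that both no change and a decrease of more than 2-fold lie within the interval.

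Among the 3 regulatory IRGs, *Irgm1* was the only DEG. *Irgm1*, known for its part in autophagy and mitochondrial quality control as well as in pathogen defense, was at 24.0, 20.97 and 41.5 CPM and at 8.77, 4.36 and 8.19 CPM. Its values labelled double knockout were all below those of the other genotype, and their mean was 24.6% of that in *Nf1fl/fl;DhhCre*. The log2 fold change was -1.99 (SE 0.40, limma-voom adjusted p = 0.0189).

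*Irgm2* was at 79.6, 85.8 and 159 CPM and at 63.8, 36.9 and 57.9 CPM. The groups did not overlap, and the log2 fold change was -0.99 (SE 0.32), with a 95% interval from -1.75 to -0.24, but the limma-voom adjusted p = 0.0700 did not pass. *Igtp*, a regulator on the endoplasmic reticulum, was at 32.8, 27.3 and 58.3 CPM and at 27.5, 17.8 and 22.2 CPM. Double-knockout replicate 1 was level with *Nf1fl/fl;DhhCre* replicate 2. The log2 fold change of *Igtp* was -0.75 (SE 0.32), with a 95% interval from -1.50 to 0.01 and an adjusted p = 0.144 from limma-voom.

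*Irgm1* was also lower relative to the other regulators. Its ratio to *Igtp* was 0.732, 0.769 and 0.712 in *Nf1fl/fl;DhhCre* and 0.319, 0.244 and 0.368 under the double-knockout label. The ratio of *Irgm1* to *Irgm2* was 0.302, 0.244 and 0.261 against 0.138, 0.118 and 0.141. These ratios of CPM were chosen after the values were seen and were not tested. No value of one genotype reached the range of the other.

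Of the 2 effector IRGs, *Iigp1* was a DEG. *Iigp1*, which inserts into pathogen vacuoles, was at 31.8, 23.2 and 50.7 CPM and at 11.8, 10.03 and 10.5 CPM. The libraries labelled double knockout were nearly equal, at 10.8 ± 0.913 CPM (SD, n = 3). The log2 fold change was -1.63 (SE 0.34, limma-voom adjusted p = 0.0211).

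*Tgtp1* had few reads, with counts of 15, 18 and 33 and of 2, 7 and 1. The groups did not overlap, but double-knockout replicates 1 and 3 held fewer than 3 counts, and the log2 fold change of -2.63 had a wide 95% interval from -4.65 to -0.61 (limma-voom adjusted p = 0.0728). Because nearly all of its sequence is shared with *Tgtp2*, the counts of both genes were also added, which gave 89, 94 and 205 reads against 14, 19 and 10 reads. The summed counts were again lower in every double-knockout library, and they were not tested.

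**Figure D2:**
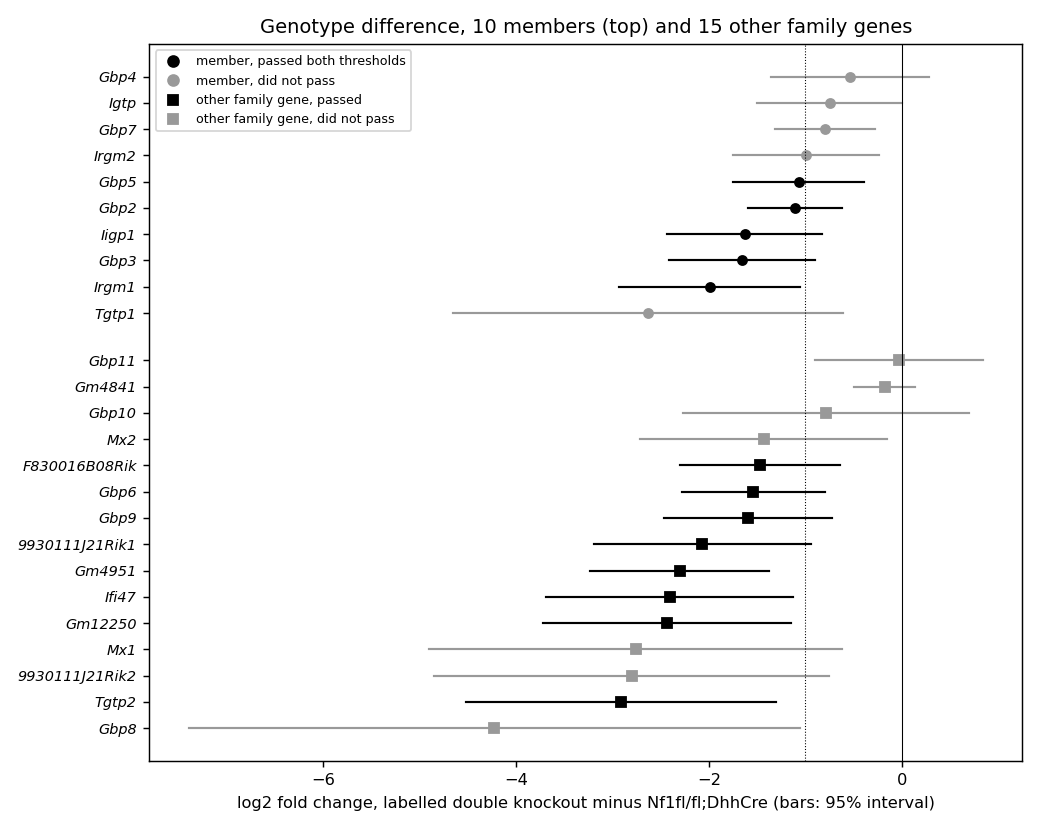
Log2 fold change (double knockout minus *Nf1fl/fl;DhhCre*, limma-voom) with its 95% interval for the 10 members (circles) and 15 other interferon-inducible GTPases (squares), black where both thresholds were passed. The dotted line marks a 2-fold decrease; all 25 estimates are below 0, and the intervals of *Gbp4*, *Igtp*, *Gbp10*, *Gbp11* and *Gm4841* include 0.

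Within a genotype the members moved together. *Nf1fl/fl;DhhCre* replicate 3 was the highest of the 6 libraries for 10 of 10 members, and replicate 2 was the lowest of its genotype for 8. Among the libraries labelled double knockout, replicate 1 was the highest for 9 members, and replicate 2 was the lowest for 7. Their summed level was 452, 406 and 721 CPM in *Nf1fl/fl;DhhCre* and 308, 203 and 232 CPM in the other genotype. The correlation of a member with the mean log2 CPM of the other 9, over the 6 libraries, was 0.74 for *Tgtp1*, 0.82 for *Gbp4* and 0.92 to 0.99 for each of the rest. The 6 libraries share the difference between the genotypes, so these values are a description.

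Levels of different genes were compared per kilobase of exon. In *Nf1fl/fl;DhhCre*, *Irgm2* (29.3 ± 12.0 CPM per kb, SD, n = 3), *Gbp3* (25.1 ± 9.05), *Gbp7* (24.9 ± 5.71), *Igtp* (19.5 ± 8.18) and *Gbp2* (17.5 ± 3.54) formed an upper group whose neighbors in this order lay within their spread. *Iigp1* (6.05 ± 2.41 CPM per kb), *Irgm1* (4.96 ± 1.91), *Gbp5* (3.71 ± 0.684) and *Gbp4* (3.03 ± 1.404) formed a lower group, again with neighbors within their spread. *Tgtp1* was the lowest, at 0.440 ± 0.191 CPM per kb. Under the double-knockout label, *Gbp7* (14.4 ± 3.32 CPM per kb) and *Irgm2* (14.3 ± 3.82) led, and *Gbp3* came after *Igtp* and *Gbp2*, at 7.89 ± 2.52 CPM per kb. *Irgm1* was there at 1.22 ± 0.412 CPM per kb, below *Gbp4* at 1.97 ± 0.428.

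Of 19 other interferon-inducible GTPases listed, 18 were in the count table and 15 were tested, of which 8 were DEGs and lower, 13 did not overlap, and the median log2 fold change was -2.07. The DEGs were the GBPs *Gbp6* (-1.54) and *Gbp9* (-1.59), the IRGs *Ifi47* (-2.40), *Tgtp2* (-2.91), *Gm12250* (-2.44), *Gm4951* (-2.30) and *F830016B08Rik* (-1.47), and *9930111J21Rik1* (-2.07). *Gbp8* had the largest estimate of this list, -4.22, with counts of 109, 85 and 347 against 18, 2 and 6, but its limma-voom adjusted p = 0.0676 did not pass. *Mx1*, which encodes an antiviral GTPase of the dynamin superfamily, was at 21.2, 9.59 and 48.2 CPM against 3.11, 1.64 and 5.22 CPM, with a limma-voom adjusted p = 0.0746. At the other end, *Gbp11* was at 7.01, 4.59 and 6.48 CPM against 9.32, 3.78 and 5.35 CPM, a log2 fold change of -0.03.

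Dynamin-superfamily GTPases that are not known to be induced by interferon were described for contrast. None of 10 was a DEG and lower by limma-voom, by unadjusted p, by edgeR's quasi-likelihood test or by DESeq2. *Atl1* (1.34) and *Dnm3* (1.77) were DEGs and higher, in a direction in which 8.03% of all tested genes were DEGs, and the median log2 fold change was 0.64. Both are abundant in neurons, and the DRG neuron markers were higher in the same libraries; their part in this was not tested.

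The interferon pathway was read from ligand to target. Of *Ifng*, *Ifnb1* and *Il27*, none had enough reads to be tested. *Ifng* had 0, 0 and 1 counts in *Nf1fl/fl;DhhCre* and 0, 2 and 0 in the other genotype, and *Ifnb1* had 1 count in all 6 libraries together, so that neither was detectable above the limit of 3 counts. *Il27* had 1, 9 and 8 counts against 0, 3 and 1. Of 7 receptors and Janus kinases, *Ifngr1*, which encodes the ligand-binding chain of the interferon gamma receptor, was the only DEG. *Ifngr1* was at 91.7, 118 and 125 CPM against 67.8, 57.3 and 42.4 CPM, a log2 fold change of -1.02 (limma-voom adjusted p = 0.0197). It did not pass both thresholds with edgeR's quasi-likelihood test, with sample quality weights or with both libraries rich in muscle transcripts left out, and of the 6 fits without 1 library it passed only in the one without double-knockout replicate 1. *Ifngr2* was lower by less than 2-fold (-0.78, limma-voom adjusted p = 0.0231), and of the 7 genes 6 were lower without overlap, the exception being *Jak1* at 0.22.

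Of 8 interferon-response transcription factors tested, 4 were DEGs and lower. *Irf8* (-2.45) and *Ciita* (-2.51), both known from antigen-presenting myeloid cells, had the largest changes of the 4, followed by *Nlrc5* (-1.36) and *Irf9* (-1.24). *Irf1* was at 21.2, 18.7 and 31.6 CPM against 12.8, 13.7 and 15.5 CPM, without overlap, but with a limma-voom adjusted p = 0.0814. Of 5 feedback inhibitors tested, *Socs3* (-1.73) and *Usp18* (-1.91) were DEGs and lower.

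Other targets of interferon did not all follow the GTPases. Among 10 tested target genes of interferon gamma, none was a DEG by limma-voom with the main settings. The count was 3 with an unadjusted p, edgeR's quasi-likelihood test, DESeq2 or sample quality weights, without *Nf1fl/fl;DhhCre* replicate 2 and without both libraries rich in muscle transcripts, and 1 with scaling by library size only. *Psmb8* (-1.52), *Psmb9* (-2.07) and *Tap1* (-1.54), which serve antigen processing, had limma-voom adjusted p-values of 0.0556, 0.0646 and 0.0769. The chemokine *Cxcl10* was at 23.7, 11.1 and 22.5 CPM against 18.6, 11.1 and 14.2 CPM and overlapped fully. Of the 10 genes, 7 had a lower estimate and 3 a higher one, with a median of -0.38. The higher ones were *Serpina3g* (1.03) and *Wars* (0.53), both without overlap, and *Cxcl11* (0.46), with overlap. In all, 7 of 30 tested genes of signalling and targets were DEGs and lower. Of 12 antiviral genes, which are mostly induced through the ISRE, 7 were DEGs and lower, among them *Zbp1* (-3.21), *Ifi44* (-2.78), *Ifit3* (-2.04) and *Ifit1* (-1.82), and the median was -1.61.

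**Figure D3:**
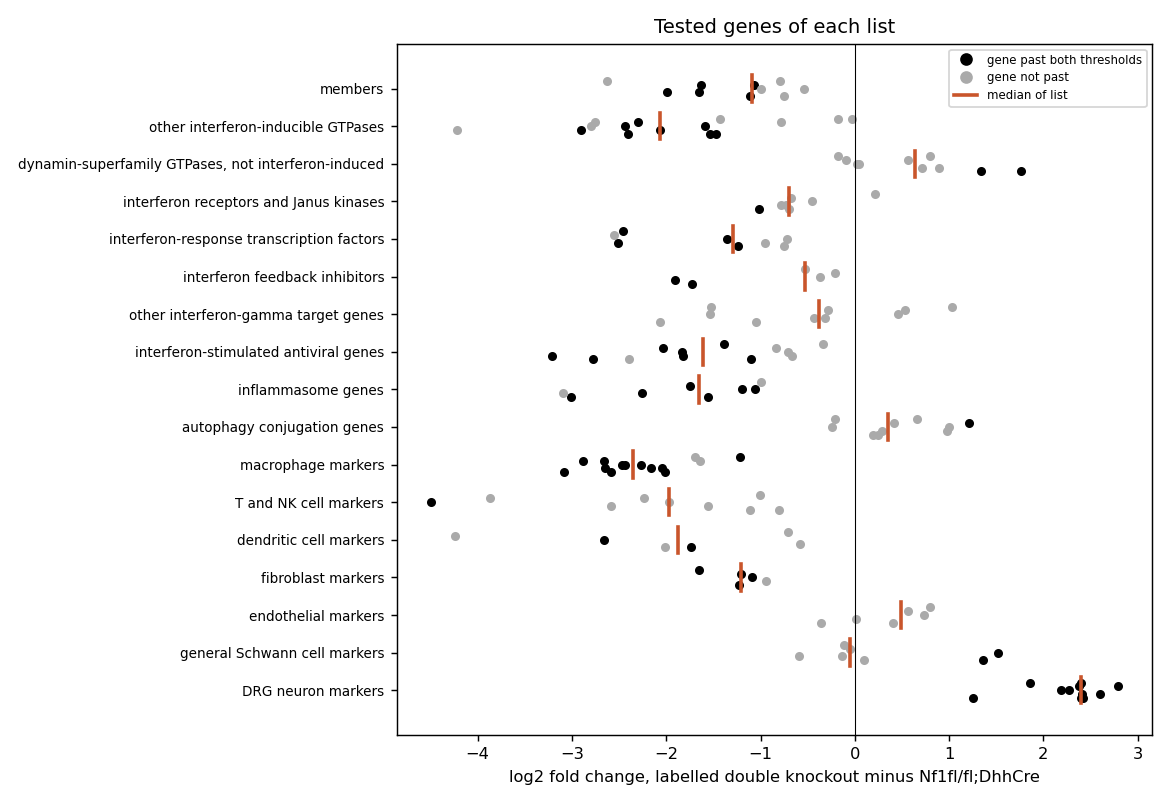
Log2 fold change (double knockout minus *Nf1fl/fl;DhhCre*, limma-voom) of each tested gene of a list, black where both thresholds were passed, with the median of the list as a bar. The medians of members, antiviral genes, inflammasome genes and macrophage markers are -1.09, -1.61, -1.66 and -2.35, and that of general Schwann cell markers is -0.05.

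The processes in which these GTPases are known to act differed. Inflammasome genes were lower, with 6 of 8 DEGs and a median of -1.66. They included *Aim2* (-3.01), a DNA sensor whose activation by bacteria involves GBPs, *Casp1* (-1.75) and *Gsdmd* (-1.56), which encodes the pore-forming gasdermin D. *Casp4*, the mouse caspase for cytosolic lipopolysaccharide, was at 68.9, 53.9 and 84.2 CPM against 38.7, 29.0 and 34.9 CPM and fell just short of 2-fold (-0.99, limma-voom adjusted p = 0.0214). Autophagy conjugation genes encode products that direct GBPs and IRGs to vacuoles. Of 10, none was a DEG and lower by any of the 3 tests or by unadjusted p, *Map1lc3a* (1.21) was a DEG and higher, and the median was 0.35.

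Macrophage markers were lower along with the members, with 12 of 14 tested genes DEGs and a median log2 fold change of -2.35. Their summed level was 1835, 1303 and 2551 CPM in *Nf1fl/fl;DhhCre* and 525, 222 and 464 CPM in the other genotype, and none of the 14 was at 0 throughout a genotype. The sums of members and of macrophage markers had the same order of replicates within each genotype. That order also held for the sums of dendritic cell markers, inflammasome genes, antiviral genes and interferon-response transcription factors. It did not hold for those of other interferon-inducible GTPases, T and NK cell markers, receptors and Janus kinases, or feedback inhibitors. These lists had the order in *Nf1fl/fl;DhhCre* only. The share that macrophages have in the level of the members was not tested.

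T and NK cell markers summed to 18.1 to 59.2 CPM and 5.22 to 9.72 CPM, with 1 of 9 tested genes a DEG (*Klrb1c*, -4.49; 3 genes with edgeR's quasi-likelihood test or unadjusted p and 4 with DESeq2), and *Cd3e*, a defining T cell gene, was at 3.54, 1.31 and 8.27 CPM against 1.28, 1.73 and 0.07 CPM. Dendritic cell markers summed to 201 to 328 CPM and 49.3 to 76.5 CPM, with 2 of 6 DEGs and lower (*Clec9a*, -2.66, and *Flt3*, -1.74). That count was 3 with edgeR's quasi-likelihood test, DESeq2, sample quality weights or unadjusted p, and without both libraries rich in muscle transcripts. The median log2 fold change was 0.11 over 4 B cell markers and -0.76 over 6 mast cell markers. Of 5 neutrophil markers, *Csf3r* (-0.72) and *Retnlg* (-2.53) did not overlap and were below the other genotype, while *S100a8*, *S100a9* and *Mpo* overlapped and were highest in *Nf1fl/fl;DhhCre* replicate 2. Of 5 fibroblast markers, 4 were DEGs and lower, with sums of 7789 to 8562 CPM and 2825 to 4561 CPM. That count was 1 without *Nf1fl/fl;DhhCre* replicate 1, 2 without double-knockout replicate 2 and 1 without both libraries rich in muscle transcripts. No general SC marker of 7 was a DEG and lower by any of the 3 tests or by unadjusted p, and *S100b* (1.52) and *Ngfr* (1.36) were DEGs and higher. Of 6 endothelial markers, 5 had a higher estimate, with a median of 0.49, and sums were 185 to 246 CPM and 199 to 341 CPM. The part of these cell types in the level of the members was not tested either.

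**Figure D4:**
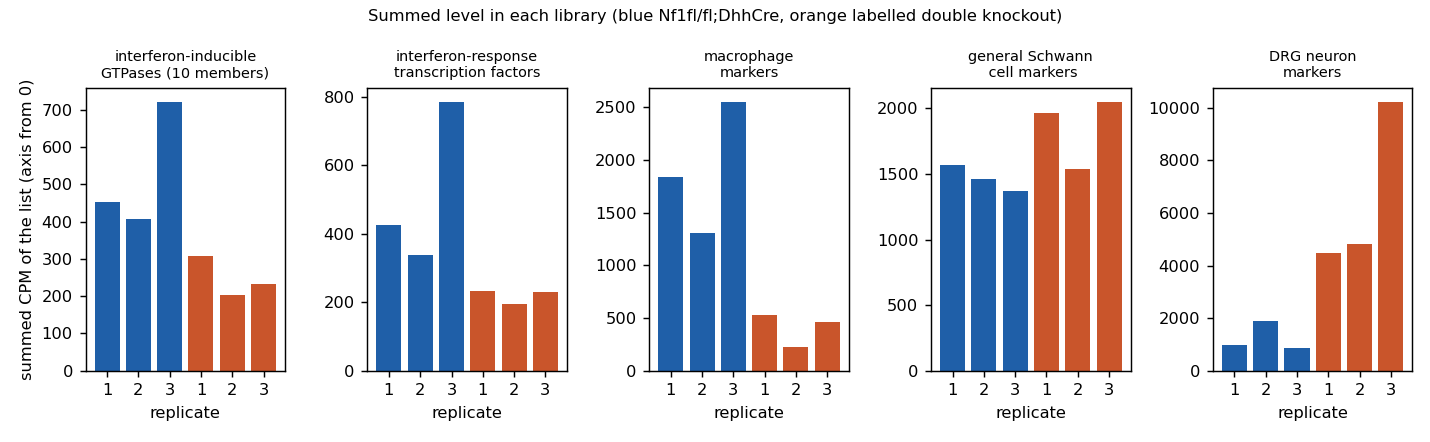
Summed CPM in each library (bars, axis from 0) for the 10 members, interferon-response transcription factors, macrophage markers, general Schwann cell markers and DRG neuron markers, with *Nf1fl/fl;DhhCre* in blue and double knockout in orange. The first 3 sums are highest in *Nf1fl/fl;DhhCre* replicate 3, and the neuron markers are highest in double-knockout replicate 3.

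The 8 genes whose log2 CPM followed the mean of the members most closely, of 10213 candidates whose average log2 CPM was 3 or more, were *Abi3*, *Ddx58*, *Ncstn*, *Nrros*, *Phf11d*, *0610031J06Rik*, *Dtx3l* and *Tor3a*. Their Pearson correlation over the 6 libraries was 0.996 or more. *Ddx58*, which encodes the RNA sensor RIG-I, was at 80.0, 67.4 and 121 CPM against 48.3, 38.0 and 36.1 CPM. *Phf11d* was at 30.0, 24.7 and 58.0 CPM against 10.3, 6.33 and 6.73 CPM. With 6 libraries in 2 groups and this many candidates, correlations of this size describe a likeness of pattern only.

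Leaving out 1 library at a time changed how many members passed but not their direction. All 10 were lower in each of the 6 fits. Without *Nf1fl/fl;DhhCre* replicate 1, or without double-knockout replicate 2, no member was a DEG by limma-voom. The DEGs that were lower over all genes went from 839 to 181 and to 326 in these fits. By unadjusted p, 7 and 5 members passed. No count over all genes by unadjusted p is given here for these fits, so the 7 and 5 cannot be set against a background. With all libraries, unadjusted p gave 6 members and 1244 of all genes that were lower. Without *Nf1fl/fl;DhhCre* replicate 3, in which the members were highest, 3 were DEGs (*Gbp3*, *Irgm1* and *Iigp1*). Without double-knockout replicate 3, in which *Runx1* was not lower, 3 were DEGs (*Gbp2*, *Gbp3* and *Irgm1*). Without double-knockout replicate 1, 4 were (*Gbp2*, *Gbp3*, *Gbp5* and *Irgm1*), and without *Nf1fl/fl;DhhCre* replicate 2, the same 5 as with all libraries. Over all genes, the DEGs that were lower numbered 498 without *Nf1fl/fl;DhhCre* replicate 3 and 473 without double-knockout replicate 3. They numbered 577 without double-knockout replicate 1 and 1028 without *Nf1fl/fl;DhhCre* replicate 2. Of the 6 fits, *Gbp3* and *Irgm1* passed in 4, *Gbp2* in 3, and *Gbp5* and *Iigp1* in 2. *Gbp4* moved to -0.14 and *Igtp* to -0.39 without *Nf1fl/fl;DhhCre* replicate 3, whereas *Irgm1* stayed between -2.15 and -1.65 in all 6 fits. The counts of the other lists moved in the same fits: without *Nf1fl/fl;DhhCre* replicate 1 the DEGs that were lower numbered 1 among the antiviral genes, 1 among the inflammasome genes and 2 among the macrophage markers, and without double-knockout replicate 2 they numbered 1, 1 and 6. The inflammasome genes also went from 6 to 3 without *Nf1fl/fl;DhhCre* replicate 3 and without double-knockout replicates 1 or 3, and the antiviral genes from 7 to 4 and 3 without double-knockout replicates 1 and 3. Over the same 6 fits, the DEGs that were lower numbered 0 to 6 among the interferon-response transcription factors, 0 to 2 among the feedback inhibitors, 0 to 1 among T and NK cell markers and 1 to 3 among dendritic cell markers. The DEGs that were higher numbered 0 to 2 among the dynamin-superfamily GTPases, 0 to 3 among the autophagy conjugation genes, 0 to 11 among the DRG neuron markers and 1 to 2 among the general SC markers, with 0 in each of the first 3 of these lists without *Nf1fl/fl;DhhCre* replicate 1. With both libraries rich in muscle transcripts left out, a setting chosen after seeing the data, *Gbp2*, *Gbp3*, *Irgm1* and *Iigp1* were DEGs. Over all genes, 719 were DEGs and lower in that fit.

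**Figure D5:**
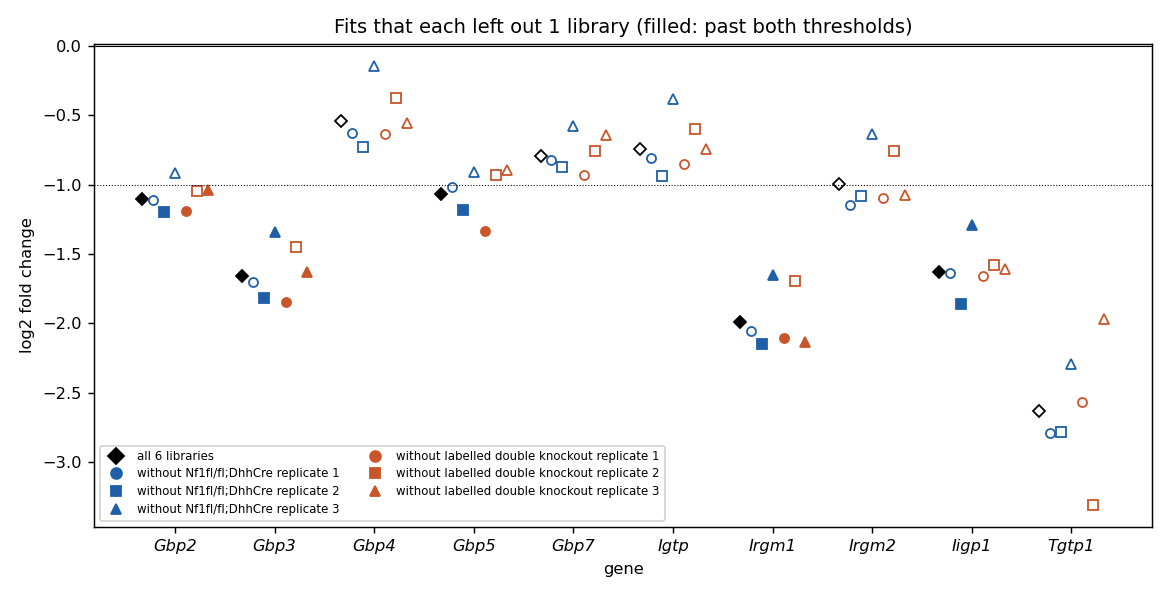
Log2 fold change of each member (limma-voom) with all 6 libraries (diamond) and with 1 library left out at a time (blue, *Nf1fl/fl;DhhCre*; orange, double knockout), filled where both thresholds were passed. No point is above 0, and the points without *Nf1fl/fl;DhhCre* replicate 3 (blue triangle) are the closest to 0 for 8 members, the exceptions being *Gbp5* and *Tgtp1*.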

How the data were processed

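RNA of mouse DRG/tumors was amplified with the Ovation kit, made into libraries with Nextera XT, aligned by the authors to mm10 with TopHat and counted with featureCounts. The deposited values are raw counts of reads per gene. The annotation, the strand setting and the handling of reads with several alignments are not given in the sources used here.

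Counts were analysed with limma 3.58.1 and edgeR 4.0.16 (R 4.3.3). TMM scaling, limma-voom and the thresholds follow the study's methods, and the filter, filterByExpr (minimum count 10, minimum total 15), was chosen here. The fit was on genotype alone, with Benjamini-Hochberg adjustment over 15652 genes. DEGs changed by more than 2-fold with an adjusted p-value below 0.05. CPM used the TMM-scaled totals. Replicates were numbered within a genotype in accession order and pair nothing. Replicates of a genotype differed by far more than counting noise, and titles carry separate mouse numbers.

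Exon lengths, positions and transcripts came from GENCODE M21 (GRCm38), which may differ from the annotation used for counting. Promoters came from RefSeq (GRCm38.p6). Python 3.11.15 with matplotlib 3.10.9 drew the figures. The fit was tested on simulated data. Members, lists and alternatives were chosen with earlier results of these data known. All members were named, and of each list DEGs and the highest and lowest changes as the text needed, beside counts over the whole list. A gene of these lists is not reported here. Alternatives tried were DESeq2 1.42.0, edgeR's quasi-likelihood test, scaling by DESeq2 size factors or by library size only, no filter or one that asked 3 libraries for more than 1 CPM, sample quality weights, unadjusted p-values, leaving out each library, and leaving out both libraries rich in muscle transcripts, which was added after seeing the data.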

Additional observations from a re-analysis of the deposited data

How the results depend on the processing

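The direction of the members did not depend on the settings tried: of 150 values of single members under alternatives, 130 kept direction and side of the threshold, 17 kept direction but no longer passed, 3 newly passed and 0 reversed. With all libraries, the members that were DEGs and lower numbered 4 with edgeR's quasi-likelihood test, which lost *Gbp5*, 7 with DESeq2, which added *Irgm2* and *Tgtp1*, 6 with unadjusted p-values and 5 in the other settings. Over all genes, that count was 975 with edgeR's quasi-likelihood test, 1236 with DESeq2 and 1244 with unadjusted p-values, against 839 in the main fit. Leaving out 1 library gave 0 to 5 members, 0 to 9 other interferon-inducible GTPases (8 with all libraries), 0 to 11 interferon signalling genes (7 with all libraries) and 181 to 1028 of all genes (839 with all libraries). The interferon signalling genes numbered 12 with DESeq2 and 11 with unadjusted p-values, beside 1236 and 1244 of all genes, and the cause was not tested. No paired analysis was possible because the labels give a mouse number to each library but no replicate number that the genotypes share. Depth limits *Tgtp1* most, with 33 counts at the highest. The labelled tissue, the sequencing run of 1 library and the cell makeup of the samples differ along with the genotype or within it, and for tissue and genotype the effects cannot be told apart.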
